A study of Mus musculus with 48 samples.

Results

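The 8 genes examined here, of 34844 gene names on the array and carried by 9 of its 55681 probes, were measured in blood and in the medial prefrontal cortex (mPFC) of the same mice: the adult α-globin genes Hba-a1 and Hba-a2, the adult β-globin genes that the array names Hbb-b1 and Hbb-b2, the embryonic globin genes Hba-x (ζ), Hbb-y (εy) and Hbb-bh1 (βh1), and Ahsp, the chaperone that binds free α-globin. A probe was taken when the array's annotation gave it one of these 8 gene names and it was not a control spot. The genes were chosen by measured values, namely the normalized log2 signals of the 4 groups in both tissues, and above all the difference between ovariectomized and sham-operated mice in mPFC, where Hbb-bh1 ranked among the largest rises. The ovariectomy contrast in mPFC is for that reason given here as a description, with no test.

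RNA was hybridized to one-colour arrays, 1 array per tissue of each mouse, from 24 female C57BL/6J mice aged 17 weeks. The groups, of 6 mice each, were sham-operated mice without stress (control), sham-operated mice given chronic ultra-mild stress (CUMS), ovariectomized mice without stress (OVX), and ovariectomized mice given the stress (OVX+CUMS). Removal of the ovaries was used to model the loss of ovarian hormones, and the combination with stress to model depression. Blood was drawn from the vena cava under pentobarbital, mixed with heparin and centrifuged, and the RNA came from the pellet, so it held red and white cells together. The mPFC was cut from brain slices after decapitation, and a perfusion of the brain is not mentioned in the protocols used here.

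Haemoglobin is made of α-like and β-like chains, whose genes lie in separate clusters and are switched during development from embryonic to adult forms. Globin messenger RNA is made in huge amounts in erythroid precursors and persists in reticulocytes, the young red cells of the circulation. Brain tissue holds red cells in its vessels, and adult globin messages have also been described in neurons and glia, so a globin signal in a brain sample can have more than 1 source.

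On the mouse genome build mm9, the probes for the α-like genes lie on chromosome 11 and those for Hbb-b1, Hbb-bh1 and Hbb-y on chromosome 7, while the probes for Hbb-b2 and Ahsp carry no position in the array's annotation. The sequences below show what the printed probes read, 5′ to 3′, either whole or by their first 30 bases. For Hbb-y, the probe that starts at base 379 of the transcript is printed. The other, which starts at base 559 and is called the first below, is not, and neither is the Hba-x probe.
Hba-a1, chr11:32183955-32184014, forward strand, whole probe: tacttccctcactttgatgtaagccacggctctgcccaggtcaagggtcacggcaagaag
Hba-a2, chr11:32197245-32197304, forward strand, first 30 bases: ttcttctctcccttgcacctgtacctcttg
Hbb-b1, chr7:110961105-110961164, reverse strand, first 30 bases: ttttctgctattgtctatgcacaaaggtta
Hbb-b2, whole probe: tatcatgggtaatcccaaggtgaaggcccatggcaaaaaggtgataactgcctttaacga
Hbb-bh1, chr7:110990209-110990268, reverse strand, first 30 bases: taaactccattccagtacactggcaatccc
Hbb-y, chr7:111000448-111000507, reverse strand, whole probe: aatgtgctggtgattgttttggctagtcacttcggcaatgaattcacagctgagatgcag
Ahsp, whole probe: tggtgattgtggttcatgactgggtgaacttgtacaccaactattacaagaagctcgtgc
The longest run of bases shared by any pair of these probes was 10. The array's annotation lists transcripts of both adult α genes for the Hba-a1 probe and for the Hba-a2 probe, so their signals cannot be assigned to 1 gene each. The transcript of the Hbb-b1 probe is now called Hbb-bt in RefSeq, and that of the Hbb-b2 probe lies on an alternate locus, while C57BL/6J mice carry the pair Hbb-bs and Hbb-bt. Which β gene the Hbb-b2 probe read in this strain therefore cannot be told apart.

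Promoters of 1 adult gene of each cluster and of both embryonic genes that RefSeq's table (GRCm38) holds are shown as background. Their part in the measurements that follow was not tested. Each promoter is the 120 bases before the transcription start, with the CCAAT box, the CACCC box and ATAA in capitals on the printed strand.
Hba-a1, chr11:32283552-32283671, forward strand: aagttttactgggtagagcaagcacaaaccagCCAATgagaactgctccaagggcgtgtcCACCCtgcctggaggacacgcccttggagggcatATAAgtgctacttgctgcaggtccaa
Hbb-bt, chr7:103813924-103814043, reverse strand: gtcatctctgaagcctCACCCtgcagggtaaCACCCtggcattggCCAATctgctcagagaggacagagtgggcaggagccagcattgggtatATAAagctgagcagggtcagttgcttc
Hbb-y, chr7:103853208-103853327, reverse strand: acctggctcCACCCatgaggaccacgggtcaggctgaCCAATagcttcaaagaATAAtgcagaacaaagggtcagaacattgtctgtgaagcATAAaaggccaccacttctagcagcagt
Hba-x, chr11:32276480-32276599, forward strand: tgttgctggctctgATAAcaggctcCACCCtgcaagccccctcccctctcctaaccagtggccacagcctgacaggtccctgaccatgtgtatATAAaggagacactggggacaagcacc
Hba-a1, Hbb-bt and Hbb-y hold all 3 motifs, as do Hba-a2 and Hbb-bs, and Hba-x holds no CCAAT. The ATAA nearest to each start has the place of a TATA box, while the first one printed for Hba-x belongs to GATAA at -107, the letters of a GATA motif. Over the same window of 32851 mouse promoters, on either strand, 21.3% held CCAAT, 31.7% CACCC and 38.1% ATAA, and 2.16% held all 3. The windows of Hba-a1 and Hba-a2 share a run of 297 of 300 bases around the start, against 14 for Hbb-bt and Hbb-bs.

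In blood, the array's 75th percentile, by which each array was scaled, was 110 ± 17.9 (SD, n = 6) signal units in control, 86.3 ± 19.9 in CUMS, 144 ± 29.8 in OVX and 126 ± 14.3 in OVX+CUMS mice, so that it differed by 0.48 on the log2 scale between OVX and sham mice and by -0.27 between stressed and unstressed mice. The spike-in controls of the same arrays differed by 0.13 and 0.02. In mPFC the 75th percentile ranged only from 572 to 689. Every group in each tissue was hybridized on 1 or 2 of 3 slides of 8 arrays: slide 1 held the controls and CUMS mice 1 and 2, slide 2 the other CUMS mice and OVX mice 1 to 4, and slide 3 the other OVX mice and all OVX+CUMS mice. OVX+CUMS mice and controls never shared a slide. In mPFC, all 10 neuronal, 7 astrocyte, 7 oligodendrocyte and 8 microglial marker genes were detected, as the tissue label implies.

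The 4 adult globin probes lay at the bright end of the array in blood, at 324000 to 648000 signal units, and were well above background on every mPFC array, at 1070 to 110000. Hba-a1 in blood read 556000, 573000 and 585000 signal units (lowest, median and highest of 6 mice) in controls, 519000, 545000 and 648000 in CUMS, 521000, 569000 and 624000 in OVX, and 555000, 573000 and 611000 in OVX+CUMS mice. The 4 groups overlapped before scaling. The highest of these readings was 83.2% of the scanner's saturation value of 779118, and no spot was marked as saturated. The total range of Hba-a1 over the 24 blood arrays was 1.25-fold, while the 75th percentile of those arrays ran from 54.9 to 192.

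After scaling, the globins were lower in blood of OVX mice. On the log2 scale over the 75th percentile, Hba-a1 was 12.11, 12.32 and 12.78 in controls, 12.35, 12.66 and 13.3 in CUMS, 11.67, 12 and 12.2 in OVX, and 12, 12.13 and 12.4 in OVX+CUMS mice. The OVX group overlapped with the controls at its upper end and lay wholly below the CUMS mice. Averaged over both stress conditions, the OVX difference was -0.45 (SE 0.10, adjusted p = 0.00116, limma).

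Among the members tested in blood, 7 of 7 probes were lower in OVX mice, where 27.7% of all 20767 probes tested were lower. Their median difference was -0.58 log2, against 0.04 for all probes. The other α probe, Hba-a2, fell by 0.60 (SE 0.10, adjusted p = 0.000199). The β probes Hbb-b1 and Hbb-b2 each fell by 0.58, with SE 0.11 and 0.12 and adjusted p of 0.000362 and 0.000839. Hbb-b1 ran from 11.82 to 12.51 in controls and from 11.21 to 11.88 in OVX mice, with a narrow overlap. In a bulk sample, a lower share of red cells or reticulocytes and less globin RNA per cell cannot be told apart.

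These differences depended on the scaling and on the slide. Without any scaling between arrays, a setting chosen after seeing the data, 0 of 7 probes changed and Hba-a1 differed by 0.03. With scaling to the spike-in controls, 4 of 7 were lower: Hba-a2 at -0.25 (adjusted p = 0.0152), Hbb-b1 at -0.23 (0.025), Hbb-b2 at -0.23 (0.0453) and 1 Hbb-y probe at -0.29 (0.0347). The spike-in scaling placed the median of all probes at 0.39 for OVX, above the value of each member. With the slide as a block no probe of the whole array passed in the OVX contrast, the 4 adult globins differed by -0.12 to 0.06 log2, and Ahsp by 0.25 (SE 0.41). On slide 2, the only slide with sham and OVX mice together, the OVX mice were compared with CUMS mice and Hba-a1 differed by -0.54 log2, a value that mixes both treatments.

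**Figure D1:**
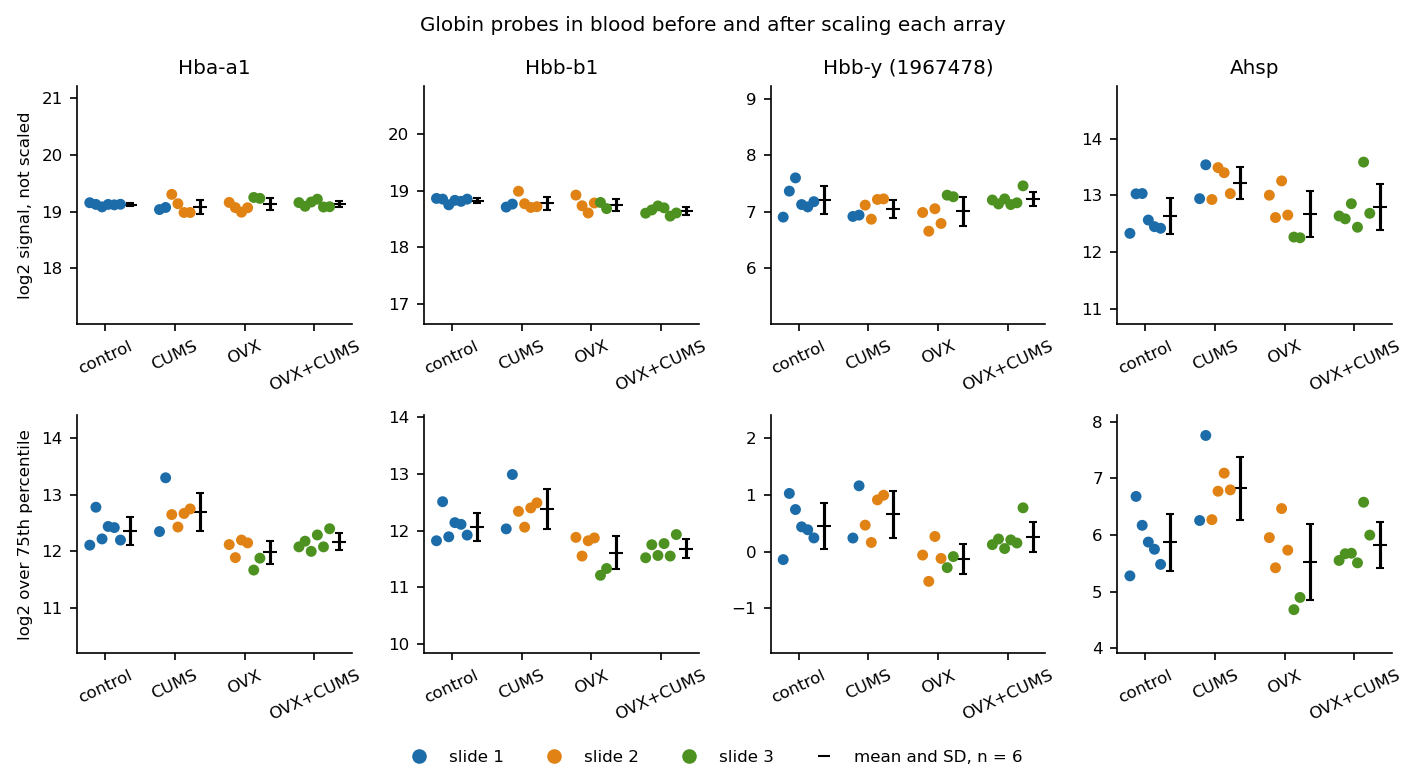
Blood signals of Hba-a1, Hbb-b1, Hbb-y and Ahsp in each mouse by group, coloured by slide, with the group mean ± SD (n = 6); the upper panels give log2 signal without scaling and the lower panels log2 signal over the array's 75th percentile. Hba-a1 spans 1.25-fold over all 24 arrays in the upper panel, and its mean falls from 12.36 in controls to 11.98 in OVX mice in the lower one.

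Under stress, 1 of the 4 adult globin probes of blood passed the test. After scaling to the 75th percentile, Hba-a1 rose by 0.26 (SE 0.10, adjusted p = 0.0379), while Hba-a2 at 0.21 (adjusted p = 0.0938), Hbb-b1 at 0.19 (0.145) and Hbb-b2 at 0.21 (0.154) did not pass the test. In total 3 of 7 member probes were higher under CUMS, where 19.1% of all probes tested were higher. With the slide as a block 5 of 7 passed, among them all 4 adult globins, at 0.42 to 0.53 log2. The median of all probes with that block was -0.06. The 19.1% belongs to the fit without the block. For CUMS, the shares of all probes that passed with the block or with other scalings are not given here. With the spike-in scaling or with none, 0 of 7 passed and the 4 adult globins turned to between -0.10 and -0.02 log2, so the direction of their stress difference rested on the 75th percentile. The Hba-a1 call was also lost (adjusted p = 0.055 to 0.0707) when 1 of 10 mice was left out: control mouse 1, 3 or 6, CUMS mouse 2 or 6, OVX mouse 2, 5 or 6, or OVX+CUMS mouse 4 or 6.

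Ahsp, which holds α-globin soluble until it meets a β chain, showed the largest stress difference among the 7 member probes that passed the filter in blood. Its blood signal was 5140, 5820 and 8370 in controls and 7780, 9600 and 11900 in CUMS mice, with an overlap of the highest controls and the lowest CUMS mice. In OVX mice it was 4870, 6340 and 9770, and in OVX+CUMS mice 5540, 6470 and 12300. The stress difference after scaling was 0.63 log2 (SE 0.21, adjusted p = 0.0172), and it passed without any single mouse. It was 1.13 on slide 1 (CUMS over control) and 1.04 on slide 3 (OVX+CUMS over OVX), and the slide block gave 1.09 (SE 0.26, adjusted p = 0.0092). With the spike-in scaling it was 0.33 (adjusted p = 0.0666) and without scaling 0.36 (0.052), above 0 in both and short of the threshold.

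The OVX difference of Ahsp was -0.67 (SE 0.21, adjusted p = 0.0099). It was -0.32 with the spike-in scaling (adjusted p = 0.0625). The interaction of OVX and CUMS in blood passed the adjusted threshold of limma for 0 of 7 member probes (adjusted p = 0.457 to 0.942), where 1.42% of all probes passed, and 0 of 7 had an unadjusted p under 0.05. A p that misses the threshold does not show that the stress differences of sham and OVX mice were equal.

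**Figure D2:**
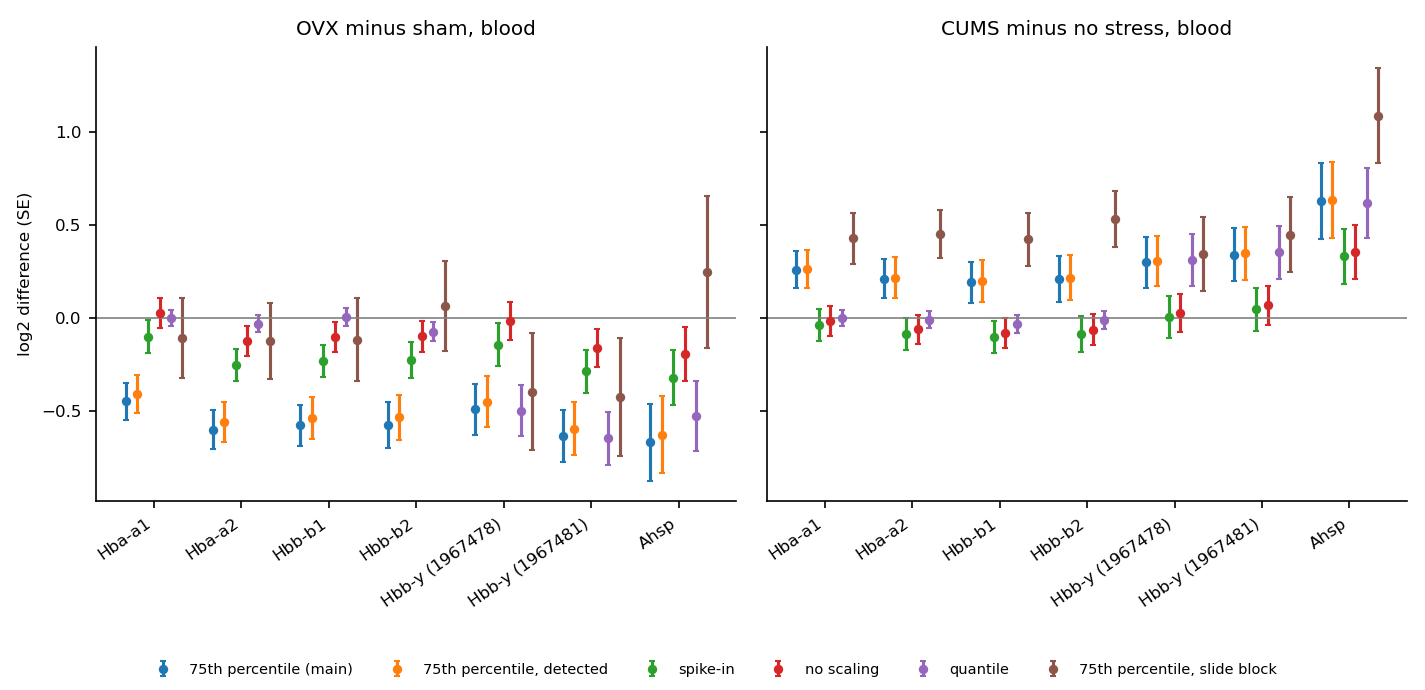
Log2 differences (points, with SE) of 7 globin and Ahsp probes in blood for OVX against sham and for CUMS against no stress. The settings drawn are the 75th percentile of all probes, that of detected probes, spike-in, no and quantile scaling, and the slide block. The OVX difference of Hba-a1 goes from -0.45 with the 75th percentile to 0.03 without scaling, and the Ahsp stress difference stays above 0 under every setting drawn.

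Among the embryonic genes, Hbb-y was read in blood on all 24 arrays by both of its probes, which start at bases 559 and 379 of its transcript. The signal of the first was 120, 142 and 194 in controls, 117, 131 and 150 in CUMS, 101, 130 and 157 in OVX and 140, 145 and 176 in OVX+CUMS mice, with all groups overlapping. After scaling, the probes differed by -0.49 (adjusted p = 0.00495) and -0.64 (0.00106) in OVX mice, and by 0.30 (0.0705) and 0.34 (0.0483) under CUMS. The stress call of the second probe was lost (adjusted p = 0.0503 to 0.0909) when 1 of 15 mice was left out: control mouse 1, 4, 5 or 6, CUMS mouse 2, 5 or 6, OVX mouse 1, 2, 5 or 6, or OVX+CUMS mouse 1, 4, 5 or 6. Over the mice, their deviations from the group means correlated at 0.80 and 0.78 with those of Hba-a1 after scaling, on arrays that share the same scaling factor.

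The other embryonic genes did not pass the filter in blood, so the main fit did not test them. Hbb-bh1 was well above background on 23 of 24 arrays, at signals of 12.2 to 45.7, but never reached the minimum of 50. Its controls read 12.2, 14.1 and 23.1, and its CUMS, OVX and OVX+CUMS mice had medians of 28.1, 34.8 and 26.1. The medians of slides 1, 2 and 3 were 16.3, 33 and 27.8, and the CUMS mice on slide 1 read 18.1 and 18.5, within the range of the controls there. Hba-x, the embryonic α-like chain, was well above background on 1 of 24 arrays.

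In mPFC, mice of 1 group differed more in the adult globins than the group means did. Hba-a1 read 8320, 10500 and 18000 in controls, 10800, 12600 and 23900 in CUMS, 6430, 8100 and 25500 in OVX and 10000, 12000 and 20100 in OVX+CUMS mice. Every pair of groups overlapped. The range over the 24 mice was 3.96-fold for Hba-a1, 3.3-fold for Hba-a2, 4.89-fold for Hbb-b1 and 4.25-fold for Hbb-b2, against 1.25-fold to 1.38-fold in unscaled blood. The highest reading of each of the first 3 groups came from a single mouse: control mouse 2, CUMS mouse 2 and OVX mouse 3.

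By limma, 0 of the 5 member probes tested in mPFC changed with CUMS (1 of 5 at an unadjusted p under 0.05), where 4.19% of all 28358 probes passed the adjusted threshold. Of these 5, Hbb-bh1 passed the filter through the OVX groups, since no control and 1 CUMS array exceeded a signal of 50. Hba-a1 differed by 0.40 (SE 0.20, adjusted p = 0.231), Hba-a2 by 0.36 (0.17, 0.216), Hbb-b1 by 0.34 (0.20, 0.32) and Hbb-b2 by 0.25 (0.19, 0.46). Those of blood had been 0.19 to 0.26, with errors of 0.10 to 0.12. The difference between the stress effects of the tissues was -0.15 to -0.04 log2 (blood minus mPFC), and 0 of the 4 adult globins passed its test (adjusted p = 0.535 to 0.894), where 51.4% of the 17544 probes measured in both tissues did. The interaction of OVX and CUMS in mPFC passed for 0 of 5 (adjusted p = 0.353 to 0.98), against 4.49% of all probes. As a description, OVX and sham mice differed in mPFC by -0.02 for Hba-a1, 0.01 for Hba-a2, -0.26 for Hbb-b1 and -0.23 for Hbb-b2.

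Hbb-bh1, the embryonic β-like chain by which these genes were singled out, was higher in mPFC of OVX mice. Its signal was 21.7, 29.1 and 38 in controls, 24.4, 39.6 and 52 in CUMS, 40, 50 and 74.3 in OVX and 39.5, 53.6 and 77.5 in OVX+CUMS mice. Neither OVX group overlapped with the controls, and both overlapped with the CUMS mice. On the scaled log2 scale the group means were -4.51 ± 0.25, -4.02 ± 0.40, -3.59 ± 0.29 and -3.49 ± 0.36 (SD, n = 6), and the mean difference between OVX and sham mice was 0.72 (SE 0.13).

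The same signals were also ordered by slide. Slide 1 ran from 21.7 to 38, slide 2 from 37.5 to 74.3 and slide 3 from 39.5 to 77.5. The CUMS mice were split by their slides: the pair on slide 1 read 32.8 and 24.4, within the range of the controls beside them, and those on slide 2 read 37.5 to 52. On slide 2 OVX mice were 0.23 log2 above CUMS mice, and the fit with the slide as a block gave 0.32 for OVX. With another background correction (normexp) the OVX difference was 0.27. Slide 1 holds no OVX mouse, so its part and that of the surgery cannot be separated for the controls.

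**Figure D3:**
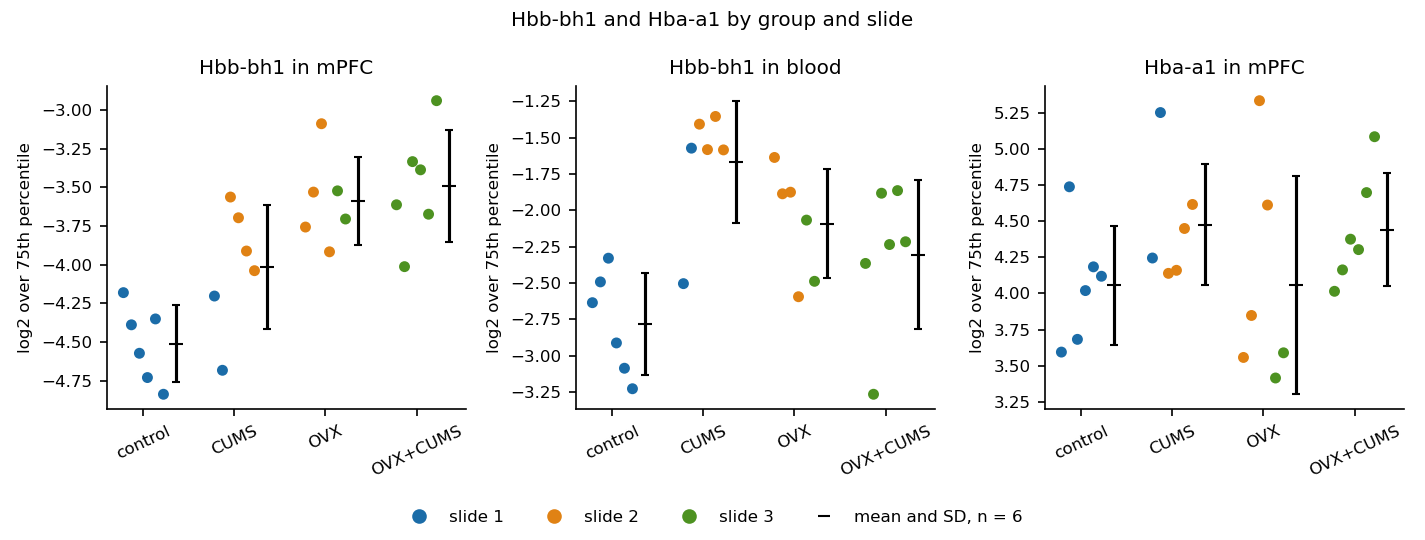
Signals of Hbb-bh1 in mPFC, Hbb-bh1 in blood and Hba-a1 in mPFC of each mouse by group, coloured by slide, with the group mean ± SD (n = 6). Slide 1 lies lowest for Hbb-bh1 in mPFC, from 21.7 to 38, and in Hba-a1 the spread between mice (6430 to 25500) covers all groups.

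The remaining members were at the edge of detection in mPFC. The Hbb-y probes were well above background on 13 and 7 of 24 arrays. The first was so on 6 of 6 CUMS arrays, 4 of 6 OVX+CUMS arrays, 2 of 6 control arrays and 1 of 6 OVX arrays. The second was so on 4 CUMS arrays, 1 OVX+CUMS array, 2 control arrays and 0 OVX arrays. Signals of the first, over all arrays of a group, were 24.5 to 59.1 in CUMS and 8.63 to 40.9 in OVX+CUMS mice. They were 11.3 to 32.3 in control and 11.4 to 25.4 in OVX mice, and every group overlapped with each of the others. The CUMS mice of slide 1 read 24.5 and 24.6 with this probe, within the range of the controls there, and those of slide 2 read 30.6 to 59.1. Hba-x was well above background in 1 mouse, OVX mouse 3, at 164. Ahsp was well above background in 1 mouse, CUMS mouse 3, at 28.3. Blood of the same mice was at least 451-fold higher in Ahsp in controls, at least 405-fold in OVX and at least 476-fold in OVX+CUMS mice, taking in mPFC the lowest signal that was well above background on each array.

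How much of the blood signal was seen in the brain sample differed between the probes. Equal amounts of RNA were labelled from both tissues, and the unscaled mPFC signal was divided by the blood signal of the same mouse. Hba-a1 in mPFC was 1.97% of blood at the median of 24 mice (1.03% to 4.89%), Hbb-b1 1.57% (0.737% to 3.68%) and Hbb-b2 0.543% (0.286% to 1.16%). Hba-a2 was 12.1% (7.37% to 23.8%), with its lowest mouse above the highest mouse of Hba-a1. Both α probes are annotated to transcripts of both genes, so this is a difference between probes and cannot be assigned to the genes. The blood readings of these probes are near the top of the scanner's range, and whether they are compressed there was not tested. Alas2, which makes the erythroid first step of haem, read 0.0569% and Slc4a1, the anion exchanger of the red cell membrane, 0.124%. The Hbb-y probes read 17% (6.13% to 42.4%) and 11.6% (1.9% to 26.2%, 23 mice). Scaling to the 75th percentile of each array lowers all of these values, to 0.366% for Hba-a1 and 2.15% for Hba-a2, and keeps their order within a mouse.

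Hbb-bh1 went the other way. Its unscaled mPFC signal was above that of blood in 24 of 24 mice, at 166% (105% to 350%). With spike-in scaling the median was 115% and with the other background correction 121%, but it was 32.3% when each array was scaled to its 75th percentile. Both signals lay below 80 units, near the lower end of the range.

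**Figure D4:**
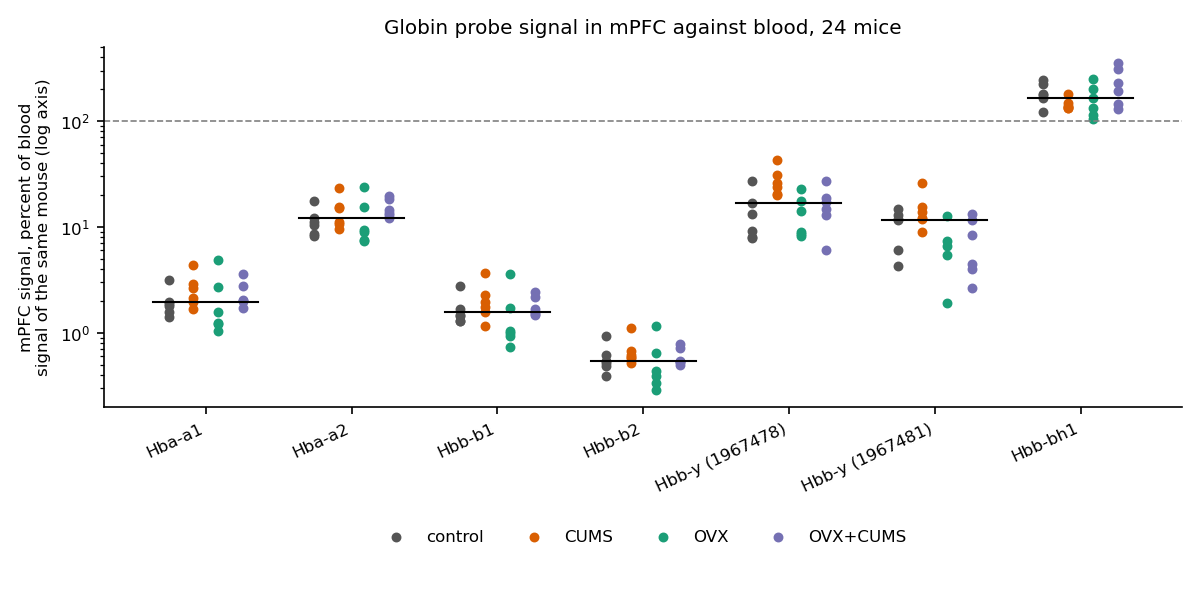
Unscaled mPFC signal as a percent of the blood signal of the same mouse for 7 globin probes, on a log axis, 1 point per mouse, with the median as a bar and a dashed line at 100%. The adult globins lie between 0.286% and 23.8%, and Hbb-bh1 lies above 100% in 24 of 24 mice.

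Among the other blood cell genes detected in blood, the median mPFC level was 3.36% of blood for 24 red cell genes, 8.18% for 12 neutrophil genes, 3.34% for 7 B cell genes and 2.33% for 8 platelet genes. Several are also expressed by brain cells, as the red cell list shows with its range of 0.0569% to 5320%. Of the most abundant blood genes, S100a8 read 0.239%, S100a9 0.217%, the B cell receptor component Cd79b 0.288% and the platelet chemokine Ppbp 0.0359%, all lower than Hba-a1.

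The adult globins of an mPFC sample moved together. Over the 24 mice, with the group means removed, Hba-a1 and Hbb-b1 correlated at r = 0.966 (permutation p = 1e-05, the smallest that 100000 permutations can give, adjusted over 5 relations to 5e-05) and Spearman's rho = 0.946. Without the 2 mice farthest from the median r was 0.94, and within slides 1, 2 and 3 it was 0.987, 0.98 and 0.872. Alas2 at 0.975 with Hba-a1 and Hbb-bs at 0.982 with Hbb-b1 were the genes outside the members most like them among 28358 probes.

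No relation of Hbb-bh1 to them was detectable over these mice. Its r was -0.05 with Hbb-b1 (permutation p = 0.818, adjusted 0.818, rho = -0.16) and 0.07 with Hba-a1 (permutation p = 0.739, adjusted 0.818, rho = 0.01). Without the 2 farthest mice these were 0.11 and 0.17, and over the slides they ran from -0.25 to 0.32 and from -0.37 to 0.64. The genes whose mPFC deviations were most like those of Hbb-bh1 were Limch1 (r = 0.794), Anapc1 (0.787), Galnt4 (0.721), Isg15 (0.715) and Pnp (0.711), as a description over 24 arrays.

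Between the tissues of a mouse, the relation turned with the scaling. With the 75th percentile, blood and mPFC levels correlated at r = 0.73 for Hba-a1 (permutation p = 0.0001, adjusted 0.00025, rho = 0.641) and 0.731 for Hbb-b1 (permutation p = 0.00025, adjusted 0.000417, rho = 0.695). Without the 2 farthest mice r was 0.644 and 0.601, and within slides it was 0.925, 0.569 and 0.536 for Hba-a1 and 0.947, 0.401 and 0.241 for Hbb-b1. With spike-in scaling it was -0.306 and -0.201, and without scaling -0.566 (adjusted permutation p = 0.0347) and -0.403 (0.183). Between these blood arrays the unscaled Hba-a1 signal spanned 1.25-fold, and the 75th percentile ran from 54.9 to 192.

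**Figure D5:**
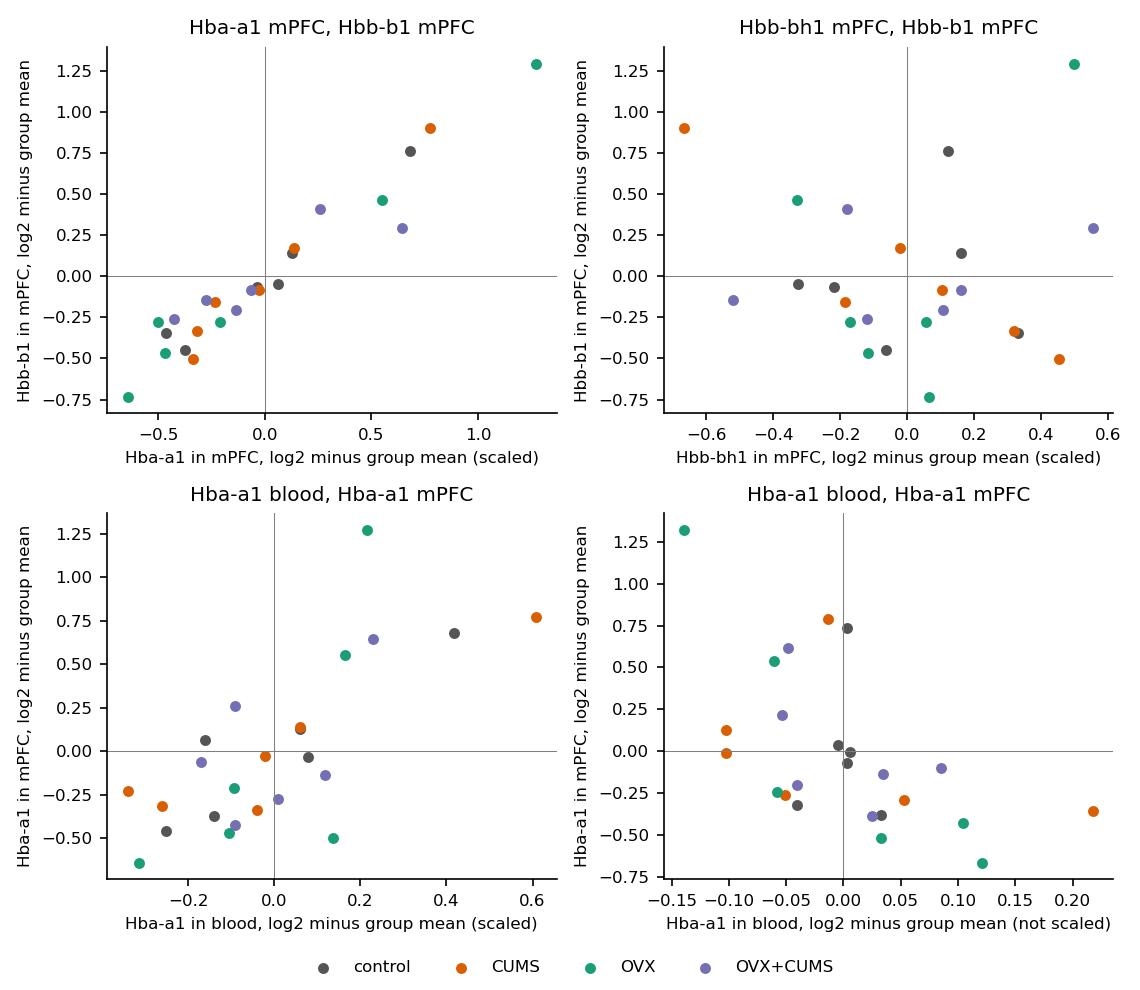
Deviations of 24 mice from their group means, in log2: mPFC Hba-a1 against Hbb-b1, mPFC Hbb-bh1 against Hbb-b1, and blood against mPFC Hba-a1 with and without scaling. The first pair lies on a line (r = 0.966), the second shows no trend (r = -0.05), and the blood relation turns from 0.73 to -0.566 when the scaling is left out.

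Other red cell genes of blood changed in the directions seen for the globins. Of 24 such genes tested, 15 fell and 0 rose in OVX mice (median -0.48, against 0.04 for all probes, of which 27.7% fell), and 18 rose and 0 fell under CUMS (median 0.49, against -0.03, with 19.1% higher). Slc4a1 fell by 0.49 in OVX mice (adjusted p = 0.04) and rose by 0.71 under CUMS (0.0069). Bpgm, which makes the 2,3-bisphosphoglycerate that lowers the oxygen affinity of haemoglobin, fell by 0.68 (adjusted p = 0.00067) and rose by 0.34 (0.047). With the spike-in scaling 6 fell and 2 rose in OVX mice and 3 rose under CUMS, and without scaling the counts were 0 and 2, and 3. With the slide as a block 0 of 24 changed with OVX and 21 rose under CUMS.

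Haem synthesis was mixed. Of 15 genes for haem and iron import, 4 fell and 3 rose with OVX (median -0.06, where 27.7% of all probes fell and 27.4% rose), and 6 rose and 1 fell under CUMS (median 0.32, where 19.1% rose and 29.4% fell). With the spike-in scaling 2 fell and 6 rose with OVX, without scaling 0 and 7, and with the slide block 0 and 0. Under CUMS 1 rose and 3 fell with the spike-in scaling or with none, and 8 rose and 1 fell with the slide block. Alas2 fell by 0.57 (adjusted p = 0.00039) and rose by 0.30 (0.029), and Fech, which inserts iron into the ring, fell by 0.61 (0.00081) and rose by 0.32 (0.043). Without scaling, Alas2 and Fech did not pass in either contrast. Steap3, the ferrireductase of the endosome, rose with OVX (0.40, adjusted p = 0.022) and under CUMS (1.02, 0.00054), and its stress rise passed under each scaling and with the slide block, where its OVX value was -0.11 (adjusted p = 0.97).

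Of 19 regulators of the globin genes, 17 were tested. With OVX 7 rose and 5 fell (median 0.14, where 27.4% of all probes rose and 27.7% fell), and 1 rose and 7 fell under CUMS (median -0.11, where 19.1% rose and 29.4% fell). The OVX counts were 9 and 1 with the spike-in scaling, 10 and 0 without scaling and 0 and 0 with the slide block. Myb, which keeps precursors dividing, rose by 0.71 with OVX (adjusted p = 0.00038) and fell by 0.57 under CUMS (0.0031), and both held under each of the scalings, while with the slide block the OVX value was 0.44 (adjusted p = 0.82). Sox6 and Gata1 fell with OVX by 0.67 (0.0008) and 0.36 (0.0011), and Sox6 rose by 0.47 under CUMS (0.011). Gata1 was 0.12 (adjusted p = 0.39) without scaling. Bcl11a, a repressor of embryonic globin that is also a B cell factor, rose by 0.43 with OVX and fell by 0.39 under CUMS, and Klf1, the erythroid CACCC-binding factor, was not detected.

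Myb and Bcl11a are also expressed in white cells, and B cell markers changed in the same directions: 4 of 7 rose with OVX (median 0.40, where 27.4% of all probes rose) and 6 of 7 fell under CUMS (median -0.46, where 29.4% fell). With the spike-in scaling or with none, 7 of 7 rose with OVX and 7 of 7 fell under CUMS, and with the slide block 0 of 7 changed with OVX and 6 of 7 fell under CUMS. Their summed blood signal was 17900 to 41900 in controls, 8150 to 26600 in CUMS, 38100 to 72800 in OVX and 18600 to 49500 in OVX+CUMS mice. Their part in the differences above was not tested. Of 12 neutrophil markers 1 rose and 1 fell with OVX, and 1 rose under CUMS.

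Among other globins of the family, 3 were tested in blood and 3 of 3 fell with OVX: Hbq1b (θ) by 0.79 (adjusted p = 0.00016), Hbq1a (θ) by 0.55 (0.002) and Hbb-bs by 0.50. Hbq1b was -0.32 without scaling (adjusted p = 0.0028), Hbb-bs turned to 0.05 with quantile scaling (adjusted p = 0.39), and 3 of 3 missed the threshold with the slide block. Quantile scaling holds the brightest probes of blood, Hbb-bs among them, near fixed values. Under CUMS Hbq1a rose by 0.43 and Hbq1b by 0.35, and with the spike-in scaling neither passed. Of 8 genes for the clearance of haemoglobin and iron storage, 2 rose and 3 fell with OVX, where 27.4% and 27.7% of all probes did. These counts were 3 and 1 with the spike-in scaling, 3 and 0 without scaling and 0 and 0 with the slide block. The ferritin heavy chain Fth1 fell by 0.68 (adjusted p = 6e-05), and Hmox1, which breaks down haem, rose by 0.66 (0.021). In mPFC, 2 of 17 red cell genes rose under CUMS and 1 fell, beside 2.33% of all probes higher and 1.86% lower. The mitochondrial iron carrier Slc25a37 rose by 0.18 (adjusted p = 0.0284), and Alas2 differed by 0.47 (SE 0.20, adjusted p = 0.172).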

How the data were processed

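RNA of blood and mPFC of 24 mice was read on 48 arrays. The authors deposited 1 intensity per spot, which, per the file headers, version 10.7.3.1 of Feature Extraction had corrected for background without bringing the arrays to a common scale. The deposited log2 table holds the authors' values from GeneSpring, scaled to each array's 75th percentile, and all of its 55249 single-spot probes were within 0.001 of those computed here up to 1 constant per array. Outlier spots (98 to 206 per array) were left out, spots of a probe were averaged, and each log2 value was taken relative to its array's 75th percentile. Precision is limited by the number of arrays. Each sample's labels name the array of the other tissue from the same individual. Replicate numbers are shared between groups only as numbers.

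A probe was detected when well above background on all 24 arrays of a tissue with a signal over 50 on at least 2 (20767 probes in blood, 28358 in mPFC, 17544 in both). Surgery, stress and their interaction were fitted with limma 3.58.1 in R 4.3.3 (Python 3.11.15 for figures), with Benjamini-Hochberg adjustment over all detected probes at 0.05. The tissue difference kept the mouse as a random block (correlation 0.059). The fits were tested on simulated data with known changes. Alternatives were normexp background correction (offset 50), quantile and spike-in scaling, no scaling, no filter or detection on all 48 arrays, an unmoderated fit, slide or replicate blocks, and leaving out each mouse.

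All members were named with all their probes, the brightest standing for a gene, and the 5 genes most like a member were those with the highest correlation of deviations from group means over the 24 arrays of a tissue. The members and gene lists were chosen with earlier results of these data known. Human samples were not analysed here.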

Additional observations from a re-analysis of the deposited data

Results flagged for a closer look

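In 5 of the 72 sets of 6 mice (a probe in a group and tissue) that were examined, 1 mouse stood apart from the others by Dixon's test, and chance alone gives about 1 in 20. Hba-x in mPFC of OVX mouse 3 was -1.95 on the scaled log2 scale, against -6.89 for the nearest mouse, at a signal of 164 that was well above background. The same mouse had the highest adult globins of its group. Hbb-b2 in mPFC of CUMS mouse 2 was 2.86, against 2.05. Hbb-bh1 in blood was -2.5 in CUMS mouse 1, against -1.58, and -3.26 in OVX+CUMS mouse 2, against -2.36, at signals of 18.1 and 12.6. Hbb-y in blood of OVX+CUMS mouse 6 was 0.772, against 0.22, at a signal of 176.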

How the results depend on the processing

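The OVX count in blood (7 of 7 lower) was 3 with quantile scaling, 4 with the spike-in scaling, 4 of 4 tested with detection on all 48 arrays, and 0 with the slide block or without scaling, and 7 without any 1 mouse. Signs turned for Hba-a1 without scaling (0.0268), for Hbb-b1 with quantile scaling (0.00678), and for Hbb-b2 (0.0642) and Ahsp (0.248) with the slide block. The CUMS count in blood (3) was 5 with normexp, 0 with the spike-in scaling or none, 1 with detection on 48 arrays and 5 with the slide block, and 1 to 5 without 1 mouse. Under CUMS, Hba-a1 turned to -0.0383 (spike-in) and -0.0156 (no scaling), and with quantile, spike-in and no scaling Hba-a2 turned to -0.00937, -0.0856 and -0.0629, Hbb-b1 to -0.0339, -0.104 and -0.0816 and Hbb-b2 to -0.0116, -0.0864 and -0.0637. Quantile scaling gives Hba-a1, the brightest probe of every blood array, 1 fixed value, so its blood correlation has no value there. Hba-a2, Hbb-b1 and Hbb-b2 ranked 2, 3 and 6 by median blood signal. Quantile scaling holds such probes near fixed values as well, so their blood differences and signs under it are largely set by the method. The CUMS count in mPFC was 0 to 1 without 1 mouse (Hbb-bh1, at 0.36 without CUMS mouse 2, a probe that met the signal minimum through the OVX groups). The other alternatives left both interactions, CUMS in mPFC and the tissue difference at 0. The OVX difference of Hbb-bh1 in mPFC was 0.267 with normexp, 0.323 with the slide block and 0.656 to 0.775 without 1 mouse. The gene was chosen by this contrast on the same arrays, so these values are a description and no test.

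With the replicate number as a block, which pairs no mice here, the counts were 7 (OVX, blood), 2 (CUMS, blood) and 0 for the others, where the Hbb-y probe called for CUMS no longer passed (adjusted p = 0.0682, limma). Without the mouse block the tissue difference was 0.

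Scaled to the 75th percentile, mPFC was 0.366% of blood for Hba-a1, 2.15% for Hba-a2, 0.285% for Hbb-b1, 0.0983% for Hbb-b2, 32.3% for Hbb-bh1, and 2.9% and 1.68% for Hbb-y, which read 46.7% and 40.1% with normexp. The correlation of Hbb-bh1 with Hbb-b1 was 0.0921 with normexp and that with Hba-a1 -0.0354 with the spike-in scaling. Blood and mPFC correlated at -0.306 and -0.566 (Hba-a1, spike-in and no scaling), and -0.201, -0.403 and -0.000895 (Hbb-b1, with quantile scaling last). Without 1 mouse, r was 0.947 to 0.98 for mPFC Hba-a1 with Hbb-b1, -0.376 to 0.206 and -0.203 to 0.315 for Hbb-bh1 with Hbb-b1 and Hba-a1, 0.657 to 0.793 for Hbb-b1 and 0.687 to 0.791 for Hba-a1 between tissues. The signs of Hbb-bh1 turned without CUMS mouse 2 (0.206) or 3 (0.0334) or OVX mouse 4 (0.00462), and without OVX mouse 3 (-0.203) or OVX+CUMS mouse 6 (-0.0607). The causes were not tested. Array number and slide layout limit these data.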

Other observations

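In blood, the probes most like Hba-a1 among 20767 were Zfp628 (r = 0.966 over 24 arrays, group means removed), Alas2 (0.965) and 3 probes for transcripts without a gene symbol (0.944 to 0.954). Those most like Hbb-b1 were Alas2 (0.957), Hbb-bs (0.948), Zfp628 (0.947) and Snhg17 (0.936). These arrays share 1 scaling factor each. In mPFC, Zdhhc22 (0.828) and Prl2c1 (0.83) followed Hba-a1, and Tent5c (0.797) and Isg20 (0.775) followed Hbb-b1. With no filter on low signal, Hba-x in blood differed by 0.87 under CUMS (adjusted p = 0.0192, limma) and by -0.48 with OVX (adjusted p = 0.121), with 1 of 24 arrays well above background. Its blood signals were 2.22 to 12.1, near background, so no conclusion is drawn from this fit.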
